A study of Mus musculus with 13 samples.

Results

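The comparison concerns the transcripts that differed in sorted mouse melanocytes when an oncogenic Braf allele was added to loss of Cdkn2a, at day 19. The members were the 4 arrays labelled day 19 with these genotypes, out of 13 arrays in 6 groups in the series, and all 19937 genes that could be named were compared. Cdkn2a/Braf day 19 melanocytes (2 arrays) were taken before growth arrest according to the labels, and the series title names the allele as BrafV600E. Cdkn2a-only day 19 melanocytes (2 arrays) carried wild-type Braf, so both groups share the Cdkn2a alteration. All 4 were cells purified by fluorescence-activated sorting from mice and not cultured. The form of the Cdkn2a allele, the Cre driver, the sort marker, the event from which days were counted and the number of mice behind an array were not stated in the labels. The other groups were Cdkn2a/Braf day 50 melanocytes, Cdkn2a/Braf melanoma, Cdkn2a/Braf/Lkb1 melanoma and Lkb1/Braf melanocytic proliferations. They entered the fit to share an estimate of the spread.

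BRAF is a kinase that activates MEK and then ERK. The V600E form signals without an upstream stimulus and is a frequent mutation of human melanoma and of moles. ERK switches on transcription factors of the ETS family, Myc and cyclin D1, and also its own inhibitors, the DUSP phosphatases and the Sprouty proteins. Cdkn2a encodes p16INK4A and p19ARF, which restrain the cell cycle through the RB and p53 pathways.

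Both groups were melanocytic by their markers. Tyrp1, Dct, Mlana, Pmel, Tyr, Kit and Slc45a2 lay above the 99th percentile of all genes on the 4 arrays, and Mitf, the lineage transcription factor, averaged 10.57 ± 0.06 and 10.58 ± 0.14 in Cdkn2a/Braf and Cdkn2a-only cells (SD, n = 2 each). Levels are log2(intensity + 1), and differences are Cdkn2a/Braf minus Cdkn2a-only on that scale with a standard error (SE). Braf read 8.78 and 8.85 on the Cdkn2a/Braf arrays and 9.31 and 9.27 on the Cdkn2a-only arrays (-0.47, SE 0.13, limma adjusted p = 0.248). Cdkn2a was at 6.27 and 6.39 in Cdkn2a/Braf cells and at 6.21 and 6.25 in Cdkn2a-only cells. Which exons the probes of either gene cover could not be set against the alleles, so neither level checks a genotype. Xist was high on 1 of 2 arrays of each genotype (Cdkn2a/Braf replicate 1 and Cdkn2a-only replicate 2) and Y-linked genes on the other, so sex was balanced between the genotypes.

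The Braf allele went with a small set of called genes, most of them increases among genes that could be named. Of 19937 genes 47 rose and 11 fell (limma, Benjamini-Hochberg adjusted p under 0.05), which is 0.236% and 0.0552% of those tested, or 0.291% in all. A fit of all probe sets, named or not, called 44 higher and 40 lower. Of these, 7 higher and 28 lower are not listed in the platform table, and what they measure was not checked. Among the 47 were an enzyme that degrades platelet-activating factor, transporters, a GABA receptor subunit, caspase-1, a cluster of keratin-associated protein genes, and asparagine synthetase. The fallers included the microRNA gene Mir211. All 58 had arrays of the 2 genotypes that did not overlap, and 50 differed by at least 1 (40 higher, 10 lower). Over all genes 156 were higher by at least 1 without overlap (0.782%), 78 were lower (0.391%), and the median difference was 0.02. The number of calls rested on which arrays gave the estimate of the spread. With the 4 day 19 arrays alone limma called 0 genes, 1972 had an unadjusted p under 0.05 and the lowest adjusted p was 0.0774, while without the noisier day 50 pair it called 122 higher and 42 lower (0.823% in all). Without Cdkn2a/Braf replicate 2, 9 of the 47 risen and 1 of the 11 fallen genes were called, without Cdkn2a/Braf replicate 1 the numbers were 19 and 1, without Cdkn2a-only replicate 1 they were 20 and 5, and without Cdkn2a-only replicate 2 they were 17 and 4. The 10 genes called in every such setting that tested them, apart from those limited to sorted arrays, were Car2, Cpe, Gabrb2, Krtap6-2, Krtap6-5, Mfge8, Mir211, Pla2g7, Slc15a1 and Slc6a6. P-values of the main fit measure the spread between arrays that the labels call biological replicates, pooled over all 6 groups. Most of that spread thus came from groups other than the day 19 pairs.

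**Figure D1:**
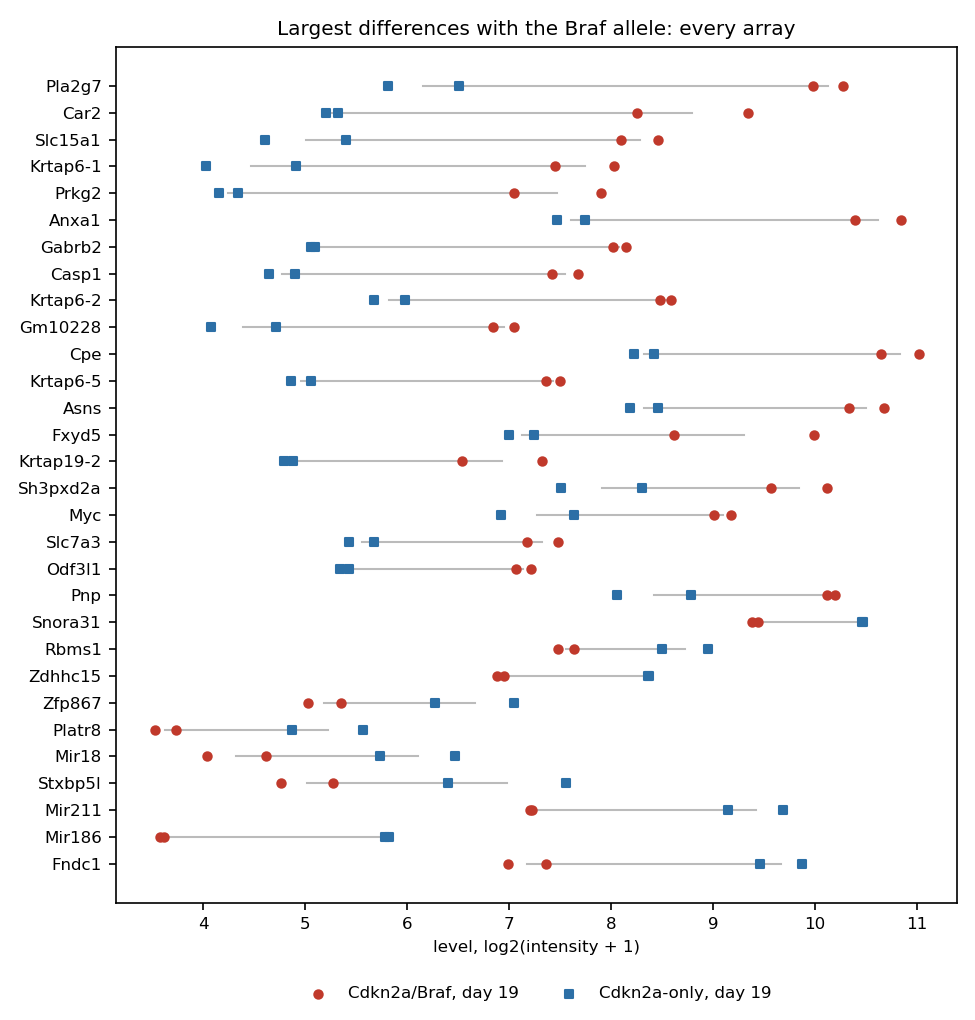
Levels, as log2(intensity + 1), of the 20 largest increases and 10 largest decreases among called genes on every day 19 array; red circles are Cdkn2a/Braf arrays, blue squares Cdkn2a-only arrays, and grey lines join the group means. No gene's groups overlap, and Gabrb2 (8.14 and 8.02 against 5.10 and 5.05) and Mir186 (3.62 and 3.57 against 5.82 and 5.79) show little spread within a genotype.

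The largest increase was in Pla2g7, the secreted acetylhydrolase that inactivates platelet-activating factor. It read 9.98 and 10.28 in Cdkn2a/Braf cells, against 5.81 and 6.51 in Cdkn2a-only cells (3.97, SE 0.37, limma adjusted p = 0.00203), or 15.7 times in intensity. Lpcat2, which synthesises platelet-activating factor, rose by 1.09 (SE 0.17). Anxa1, a phospholipid-binding protein that restrains inflammation, was at 10.40 and 10.84 in Cdkn2a/Braf cells and at 7.47 and 7.75 in Cdkn2a-only cells (3.01, SE 0.41). Casp1, the protease that matures interleukin-1 beta in the inflammasome, gave 7.68 and 7.42 with the Braf allele and 4.90 and 4.65 without it (2.78, SE 0.30, limma adjusted p = 0.00519). Its neighbour Casp4, an inflammatory caspase that senses lipopolysaccharide, differed by 1.57 (SE 0.74, limma adjusted p = 0.725), with 6.66 and 6.93 in Cdkn2a/Braf cells and 4.88 and 5.56 in Cdkn2a-only cells.

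In the inflammasome and pyroptosis list, chosen with earlier results of these data known, 19 genes were measured and the median difference was 0.19. Of them 3 rose (Pla2g7, Anxa1 and Casp1, against 0.236% of all genes) and none fell. Pla2g7 and Anxa1 are not inflammasome components, so Casp1 was the only component called. Sensors and partners differed little: Nlrp3 by 0.22 (SE 0.13), Aim2 by 0.14 (SE 0.25) and the adaptor Pycard by -0.16 (SE 0.39), none past the threshold. The adaptor Myd88 of Toll-like receptors rose by 1.08 (SE 0.17), the DNA-sensing adaptor Sting1 by 1.54 (SE 0.19) and the chemokine Cxcl11 by 1.26 (SE 0.15). None of 18 genes measured in the interferon-stimulated list was called, and their median was 0.04 (between -0.02 and 0.04 over 4 scalings). That list does not hold Cxcl11 or its neighbour Cxcl10, which differed by 1.04 (SE 0.49, limma adjusted p = 0.731). Macrophages also express several of these genes. The summed intensity of 23 myeloid and mast cell markers was 1172 and 3960 on the Cdkn2a/Braf arrays and 998.4 and 2834 on the Cdkn2a-only arrays, none of the 23 passed the test and none was at 0. Lyz2, the macrophage lysozyme, read 6.94 and 9.72 with the allele and 5.32 and 8.22 without it, so the replicates differed within each genotype. The part of admixed myeloid cells in the values of Casp1, Pla2g7 and Anxa1 was not tested.

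Car2 and Slc15a1 had the next largest increases. Car2, a cytosolic carbonic anhydrase that interconverts carbon dioxide and bicarbonate, read 8.26 and 9.34 in Cdkn2a/Braf cells, against 5.21 and 5.32 in Cdkn2a-only cells (3.54, SE 0.34, limma adjusted p = 0.00232). Slc15a1, the proton-coupled peptide transporter of the intestine, was at 8.46 and 8.10 with the Braf allele and at 5.40 and 4.61 without it (3.28, SE 0.24, limma adjusted p = 0.00059). Both groups of arrays were clearly apart for each gene. Car6, the secreted carbonic anhydrase, had 10.13 and 9.65 in Cdkn2a/Braf cells and 5.98 and 7.84 in Cdkn2a-only cells, a difference of 2.98 (SE 0.95) that missed the threshold (limma adjusted p = 0.40). Among 17 carbonic anhydrase and proton transport genes measured, Car2 and Slc15a1 were the 2 called (0.291% of all genes were), and the median was 0.06.

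Gabrb2, the beta 2 subunit of the GABA-A chloride channel, gave 8.14 and 8.02 in Cdkn2a/Braf cells and 5.10 and 5.05 in Cdkn2a-only cells (3.00, SE 0.17, limma adjusted p = 0.000121). Its 3 probe sets differed by 3.00, 3.22 and 2.82, and in a fit of the 6 sorted arrays alone it was the 1 gene called, 0.00502% of those tested. It was also the 1 gene called among 15 GABA and glycine receptor genes measured (0.291% of all genes were called in the main fit). Prkg2, a cGMP-dependent protein kinase, was at 7.04 and 7.90 in Cdkn2a/Braf cells and at 4.15 and 4.34 in Cdkn2a-only cells (3.23, SE 0.39), and its second probe set differed by 1.49. Fxyd5, a regulator of the sodium pump, was at 8.62 and 9.99 with the allele and at 7.0 and 7.25 without it (2.18, SE 0.36). Cpe, the carboxypeptidase that trims prohormones, read 10.65 and 11.02 in Cdkn2a/Braf cells and 8.42 and 8.22 in Cdkn2a-only cells (2.51, SE 0.19). Sh3pxd2a, the podosome scaffold TKS5, was at 9.57 and 10.12 in Cdkn2a/Braf cells and 7.51 and 8.31 in Cdkn2a-only cells (1.93, SE 0.32), though its other probe set differed by 0.71. Slc6a6, the taurine transporter, rose by 1.72 (SE 0.17), and the creatine transporter Slc6a8 fell by 0.93 (SE 0.14). Odf3l1 had 7.07 and 7.21 in Cdkn2a/Braf cells and 5.34 and 5.43 in Cdkn2a-only cells (1.76, SE 0.19).

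Most ERK target genes had modest differences above 0, and 2 of them passed the test. Myc was at 9.02 and 9.18 in Cdkn2a/Braf cells and at 6.92 and 7.64 in Cdkn2a-only cells (1.82, SE 0.25, limma adjusted p = 0.0154). Ccnd1, cyclin D1, read 8.96 and 9.38 with the Braf allele and 7.52 and 7.98 without it (1.42, SE 0.18). Both rose, and they were the 2 called of 24 ERK output genes measured (0.291% of all genes were called). Of the 24, 19 differences were above 0 (53.5% of all genes were), and the median was 0.34. The ETS factors Etv5 (10.37 and 10.56 in Cdkn2a/Braf cells, 8.58 and 8.17 in Cdkn2a-only cells) and Etv1 (10.29 and 10.18 with the allele, 9.06 and 8.79 without it) were apart on these 4 arrays. Their SEs of 0.85 and 0.90, from a spread shared with the other groups, left them outside the threshold (limma adjusted p = 0.633 and 0.925). Etv4 differed by 0.52 (SE 0.13, limma adjusted p = 0.24).

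Of 15 ERK feedback inhibitors none was called, 12 differences were above 0 and the median was 0.31. Dusp6, the ERK-specific phosphatase, read 9.61 and 9.66 in Cdkn2a/Braf cells and 8.43 and 8.04 in Cdkn2a-only cells (1.40, SE 0.30, limma adjusted p = 0.121). Spry2, a Sprouty inhibitor of receptor signalling, was at 8.49 and 8.65 with the allele and at 7.71 and 7.72 without it (0.86, SE 0.19, limma adjusted p = 0.157). Dusp4 differed by 0.98 (SE 0.40) and Spry4 by 0.72 (SE 0.28), while Dusp1 differed by -0.22 (SE 0.41). The 16 measured genes of the pathway itself had a median of 0.03 (between -0.06 and 0.03 over 4 scalings) and none was called. They include kinases such as Braf and Map2k1, the GTPase Nras, adaptors, and both activators and inhibitors of RAS. Among 20 immediate early and dissociation response genes, which cell sorting can also raise, none was called and the median was 0.21.

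**Figure D2:**
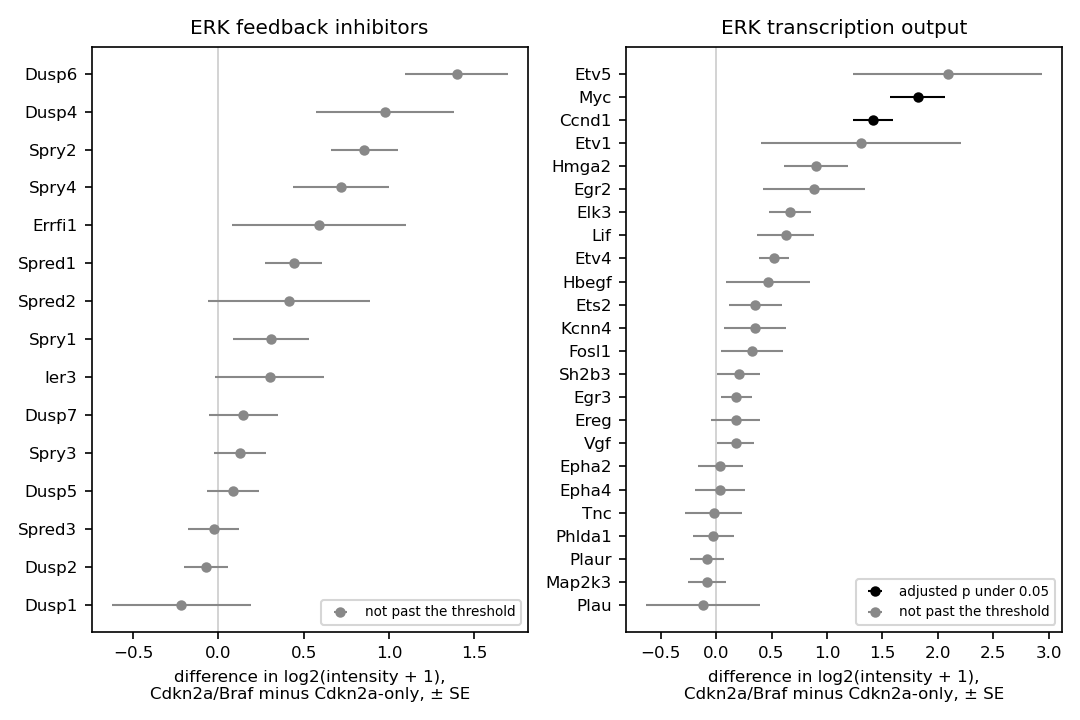
Differences in log2(intensity + 1), Cdkn2a/Braf minus Cdkn2a-only, of 15 ERK feedback inhibitors (left) and 24 ERK output genes (right), with SE from the limma fit; black points passed an adjusted p of 0.05. Myc at 1.82 and Ccnd1 at 1.42 passed, and Etv5 at 2.09 has a wide error (0.85).

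No member of the lists for mitosis (26 measured, median -0.09), DNA replication (27, median 0.09), the p53 pathway (19, median 0.26) or senescence (21, median 0.35) was called. Over 4 scalings the p53 median ran from 0.13 to 0.26 and the senescence median from 0.24 to 0.35. Differences above 0 numbered 11 of 26 in the mitosis list, 15 of 27 in the DNA replication list, 15 of 19 in the p53 list and 15 of 21 in the senescence list. Without overlap, 9 p53 pathway genes were higher and 2 lower, as were 7 and 3 senescence genes, against 23.1% and 17.5% of all genes. Of 6 CDK inhibitors measured, Cdkn2b, which encodes p15INK4B, came nearest, with 7.27 and 7.42 in Cdkn2a/Braf cells and 6.52 and 6.02 in Cdkn2a-only cells (1.07, SE 0.19, limma adjusted p = 0.0607). It lies beside Cdkn2a and Mtap on chromosome 4, and Mtap, methylthioadenosine phosphorylase, rose by 1.26 (SE 0.20) while Cdkn2a between them differed by 0.10 (SE 0.16). Trp53inp1 and Phlda3, p53 targets, differed by 0.69 (SE 0.35) and 0.80 (SE 0.23). Igfbp3 and Timp1, secreted proteins of senescent cells, differed by 1.52 (SE 0.46) and 1.29 (SE 0.46), and none of these 4 passed. In the senescence list Serpinb2 and Bhlhe40 went the other way, by -0.87 (SE 0.45) and -0.63 (SE 0.32), neither past the threshold.

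Genes of amino acid supply divided into a few that rose and many that did not differ by much. Asns, asparagine synthetase, read 10.68 and 10.33 in Cdkn2a/Braf cells and 8.47 and 8.19 in Cdkn2a-only cells (2.18, SE 0.27, limma adjusted p = 0.0109). Slc7a3, a transporter of arginine and lysine, was at 7.48 and 7.17 with the Braf allele and at 5.68 and 5.43 without it (1.77, SE 0.22). Slc7a11, the cystine and glutamate exchanger, had 8.94 and 10.06 in Cdkn2a/Braf cells and 6.87 and 6.92 in Cdkn2a-only cells, a difference of 2.61 (SE 0.52) just outside the threshold (limma adjusted p = 0.0859). Pnp, the purine nucleoside phosphorylase, was at 10.12 and 10.20 in Cdkn2a/Braf cells and 8.06 and 8.78 in Cdkn2a-only cells (1.74, SE 0.25). Of 27 ATF4 and amino acid genes measured 2 rose (0.236% of all genes did) and none fell. Their median was 0.08 (between -0.03 and 0.08 over 4 scalings). Atf4 itself differed by 0.01 (SE 0.14), Ddit3 by 0.19 (SE 0.35), Slc7a5 by -0.10 (SE 0.22) and the mitochondrial folate enzyme Aldh1l2 by -0.92 (SE 0.17, limma adjusted p = 0.0606). Ribosomal proteins (20 measured) and ribosome biogenesis genes (20) had medians of 0.25 and 0.22, with none called. Over 4 scalings these medians ran from 0.09 to 0.25 and from 0.11 to 0.22.

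The promoters of Asns and Slc7a11 are shown because both hold the core of the C/EBP-ATF response element, through which ATF4 is known to act on them. The 250 bases before each gene's start were taken from RefSeq (GRCm38.p6), and TGATGNAA was searched on both strands. Capitals mark the matches.
Asns, chr6:7693210-7693459, minus strand: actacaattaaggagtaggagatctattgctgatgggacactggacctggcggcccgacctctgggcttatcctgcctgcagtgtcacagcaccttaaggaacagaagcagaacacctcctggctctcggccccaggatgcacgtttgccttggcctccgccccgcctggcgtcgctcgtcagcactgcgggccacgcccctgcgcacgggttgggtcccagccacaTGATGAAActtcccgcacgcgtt
Slc7a11, chr3:50443614-50443863, minus strand: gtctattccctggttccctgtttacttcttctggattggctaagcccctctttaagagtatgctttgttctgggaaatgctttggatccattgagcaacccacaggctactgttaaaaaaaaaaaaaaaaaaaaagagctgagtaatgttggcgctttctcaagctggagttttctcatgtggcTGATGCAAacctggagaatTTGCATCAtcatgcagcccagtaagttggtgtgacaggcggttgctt
The match in Asns begins 23 bases before the start, and those in Slc7a11 begin 66 and 47 bases before it. The motif was in 7 of 25 windows of the ATF4 list (28%), in 3 of 35 windows of the risen genes (8.57%) and in 3.45% of all 32851 windows. Gars and Chac1 also hold it and differed by 0.08 (SE 0.22) and 0.48 (SE 0.14), neither past the threshold. A match describes the sequence and is not evidence of binding.

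Genes of the keratin-associated protein cluster on chromosome 16 were among the largest increases. These small proteins cross-link keratin filaments in the hair shaft and are textbook products of hair keratinocytes. Krtap6-1 read 7.45 and 8.03 in Cdkn2a/Braf cells and 4.91 and 4.03 in Cdkn2a-only cells (3.27, SE 0.36, limma adjusted p = 0.00519). Krtap6-2 was at 8.48 and 8.59 with the allele and at 5.68 and 5.98 without it (2.71, SE 0.21, limma adjusted p = 0.000618). Krtap6-5 gave 7.36 and 7.50 in Cdkn2a/Braf cells and 5.05 and 4.86 in Cdkn2a-only cells (2.47, SE 0.20), and the related Gm10228 gave 7.05 and 6.84 in Cdkn2a/Braf cells and 4.71 and 4.07 in Cdkn2a-only cells (2.55, SE 0.38). All 4 rose. Krtap19-2 rose as well, with 6.53 and 7.33 in Cdkn2a/Braf cells and 4.79 and 4.88 in Cdkn2a-only cells (2.09, SE 0.28).

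In RefSeq gene order Gm10229, Krtap6-1, Gm10228, Krtap6-5 and Krtap6-3 are consecutive, and they differed by 2.26, 3.27, 2.55, 2.47 and 2.20. Gm10229 (limma adjusted p = 0.0527) and Krtap6-3 (0.0787) missed the threshold. Krtap6-2 lies between Krtap21-1 (1.51, SE 0.46) and Krtap8-1 (0.16, SE 0.34), so not every gene of the region differed alike. Of 30 keratin-associated protein genes measured 4 rose (0.236% of all genes did) and none fell. Without overlap 17 were higher (23.1% of all genes were), and the median was 0.31. Their probes may share sequence between paralogs, which was not tested.

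Among other hair shaft markers, none of 23 hair keratin and root sheath genes was called. Their median was -0.02, with differences from -1.21 (Tchh, trichohyalin) to 0.73 (Krt86), 6 higher and 1 lower without overlap (23.1% and 17.5% of all genes were), and their summed intensity was 2810 and 2072 in Cdkn2a/Braf cells and 2531 and 3953 in Cdkn2a-only cells. The sums of the 30 keratin-associated genes were 4677 and 4333 with the allele and 3104 and 3907 without it. The 20 keratinocyte genes had a median of 0.09 with none called. No marker of these lists was at 0. In sorted bulk cells, fewer cells of a type and less RNA per cell cannot be told apart, and a part of admixed hair cells in these values was not tested. The fibroblast, endothelial, Schwann, T cell and adipocyte lists had medians between 0.01 and 0.19 with no called member, and the Schwann and adipocyte medians were below 0 under the 3 other scalings.

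Promoter sequence of 3 clustered genes is shown because they are neighbours and all 3 rose. The last 100 bases before each RefSeq start (GRCm38.p6) are given, with TATAAAA in capitals.
Krtap6-1, chr16:89031599-89031698, plus strand: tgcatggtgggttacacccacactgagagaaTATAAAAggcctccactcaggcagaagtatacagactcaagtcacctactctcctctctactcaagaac
Gm10228, chr16:89041473-89041572, minus strand: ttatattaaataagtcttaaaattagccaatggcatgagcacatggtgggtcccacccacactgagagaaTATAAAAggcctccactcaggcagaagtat
Krtap6-5, chr16:89047900-89047999, minus strand: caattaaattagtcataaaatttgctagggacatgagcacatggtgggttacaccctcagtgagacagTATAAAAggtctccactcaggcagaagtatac
TATAAAA, searched on both strands, begins 69, 30 and 32 bases before the 3 starts in that order. It was in 4 of 35 windows of the risen genes (11.4%), the fourth being Anxa1, and in 4.98% of all windows. In global alignments of the 250-base windows, Krtap6-1 was identical to Gm10228 at 65.2% of positions and to Krtap6-5 at 63.2%, and Gm10228 to Krtap6-5 at 57.6%. Krtap6-1 was identical to Krtap6-2, which also rose, at 48.4%. Over all pairs of the 7 windows compared, identity ran from 42% to 65.2%. Unrelated windows were not aligned, so how far these values exceed those of unrelated sequence was not tested.

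Of 18 pigment genes 15 had differences below 0, none past the threshold, while a microRNA gene inside one of them fell. Mir211 read 7.21 and 7.23 in Cdkn2a/Braf cells and 9.15 and 9.69 in Cdkn2a-only cells (-2.20, SE 0.19, limma adjusted p = 0.00154). It lies within Trpm1, the melanocyte channel gene whose transcript carries it, and Trpm1 had 8.98 and 8.07 in Cdkn2a/Braf cells and 10.35 and 10.14 in Cdkn2a-only cells (-1.72, SE 0.34, limma adjusted p = 0.0882). The probe set covers precursor or host sequence, so the mature microRNA was not measured. Slc24a4, an ion exchanger of pigment cells, differed by -1.46 (SE 0.27, limma adjusted p = 0.0617). Of 18 melanin and melanosome genes none was called, 10 were lower without overlap (17.5% of all genes were), 3 differences were above 0 and the median was -0.28. The most abundant ones hardly differed, with Tyr at -0.16 (SE 0.59), Tyrp1 at -0.01 (SE 0.20) and Dct at 0.03 (SE 0.27). The 18 lineage regulators and receptors had a median of 0.01 (between -0.08 and 0.01 over 4 scalings), and Erbb3, a neuregulin receptor, differed by 1.05 (SE 0.42, limma adjusted p = 0.619).

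A Trpm1 promoter is printed with the MITF-type motif TCATGTG in capitals, from the 250 bases before a RefSeq start (GRCm38.p6). Trpm1 has more than 1 such window, and this one was picked because it holds the motif.
Trpm1, chr7:64153585-64153834, plus strand: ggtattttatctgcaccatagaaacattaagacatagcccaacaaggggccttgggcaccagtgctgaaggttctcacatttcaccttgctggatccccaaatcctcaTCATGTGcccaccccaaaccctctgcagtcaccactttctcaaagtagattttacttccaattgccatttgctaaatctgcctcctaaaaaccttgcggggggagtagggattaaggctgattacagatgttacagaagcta
The match begins 142 bases before that start. On both strands the motif was in 6 of 16 windows of the melanin list (37.5%) and in 3.25% of all windows, and in Asns its reverse complement overlaps the TGATGNAA match. Tyr, Tyrp1 and Dct hold it too, with the differences near 0 given above.

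The list of miR-17-92 family clusters and melanocyte microRNA precursors had 22 genes measured. Of these 3 fell (0.0552% of all genes did) and none rose. Differences below 0 numbered 18, and the median was -0.13. Without overlap 8 were lower and 1 higher (17.5% and 23.1% of all genes were). The list was chosen with earlier results known, and other microRNA genes on the arrays lie outside it. Mir186 was at 3.62 and 3.57 in Cdkn2a/Braf cells and at 5.82 and 5.79 in Cdkn2a-only cells (-2.21, SE 0.27, limma adjusted p = 0.0109). Its host Zranb2 differed by -0.12 (SE 0.19). Mir18 had 4.03 and 4.61 with the allele and 6.47 and 5.73 without it (-1.78, SE 0.25). In the same cluster Mir17 differed by -0.78 (SE 0.30), Mir20a by -0.13 (SE 0.18), and the host transcript Mir17hg by -0.45 (SE 0.21). Both Mir186 and Mir18 are dim, and the amplification used does not select small RNA. The mature 5p sequences from RefSeq, with the seed (bases 2 to 8) in capitals, show which of these microRNAs could share targets.
miR-211-5p: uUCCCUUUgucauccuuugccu
miR-204-5p: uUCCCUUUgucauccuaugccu
miR-186-5p: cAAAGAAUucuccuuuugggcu
miR-18a-5p: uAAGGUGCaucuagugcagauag
miR-17-5p: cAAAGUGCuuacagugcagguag
miR-211 and miR-204 have the same seed, but Mir204 read 3.99 and 3.79 in Cdkn2a/Braf cells and 3.87 and 3.87 in Cdkn2a-only cells (0.02, SE 0.16). The seeds of miR-18a and miR-17 differ from each other and from that of miR-186.

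The other fallers were varied. Fndc1, a protein with fibronectin repeats, had 7.36 and 6.99 in Cdkn2a/Braf cells and 9.88 and 9.47 in Cdkn2a-only cells (-2.49, SE 0.34), the largest decrease. Stxbp5l, a SNARE-binding tomosyn, was at 5.27 and 4.76 with the allele and at 6.40 and 7.55 without it (-1.96, SE 0.31). The palmitoyltransferase Zdhhc15 read 6.95 and 6.88 in Cdkn2a/Braf cells and 8.37 and 8.38 in Cdkn2a-only cells (-1.46, SE 0.19). Rbms1, a single-stranded nucleic acid binding protein, was at 7.64 and 7.48 in Cdkn2a/Braf cells and at 8.50 and 8.96 in Cdkn2a-only cells (-1.17, SE 0.16). All 4 fell, with no overlap between the genotypes.

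The zinc finger gene Zfp867 had 5.35 and 5.03 in Cdkn2a/Braf cells and 6.27 and 7.05 in Cdkn2a-only cells (-1.47, SE 0.22). The long noncoding RNA Platr8 was at 3.73 and 3.52 with the allele and at 5.57 and 4.87 without it (-1.59, SE 0.21). Snora31, a small nucleolar RNA inside Tpt1, read 9.45 and 9.38 in Cdkn2a/Braf cells and 10.48 and 10.47 in Cdkn2a-only cells (-1.06, SE 0.15), while Tpt1 differed by -0.13 (SE 0.13). The remaining risen genes included Mfge8, an opsonin for dying cells (1.50, SE 0.14), and the retinoic acid binding protein Crabp1 (1.49, SE 0.19). They also included the metalloproteinase inhibitor Timp2 (1.50, SE 0.21), the semaphorin Sema7a (1.14, SE 0.18), the forkhead factor Foxp2 (1.21, SE 0.17) and galectin-1 (Lgals1, 0.83, SE 0.14).

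**Figure D3:**
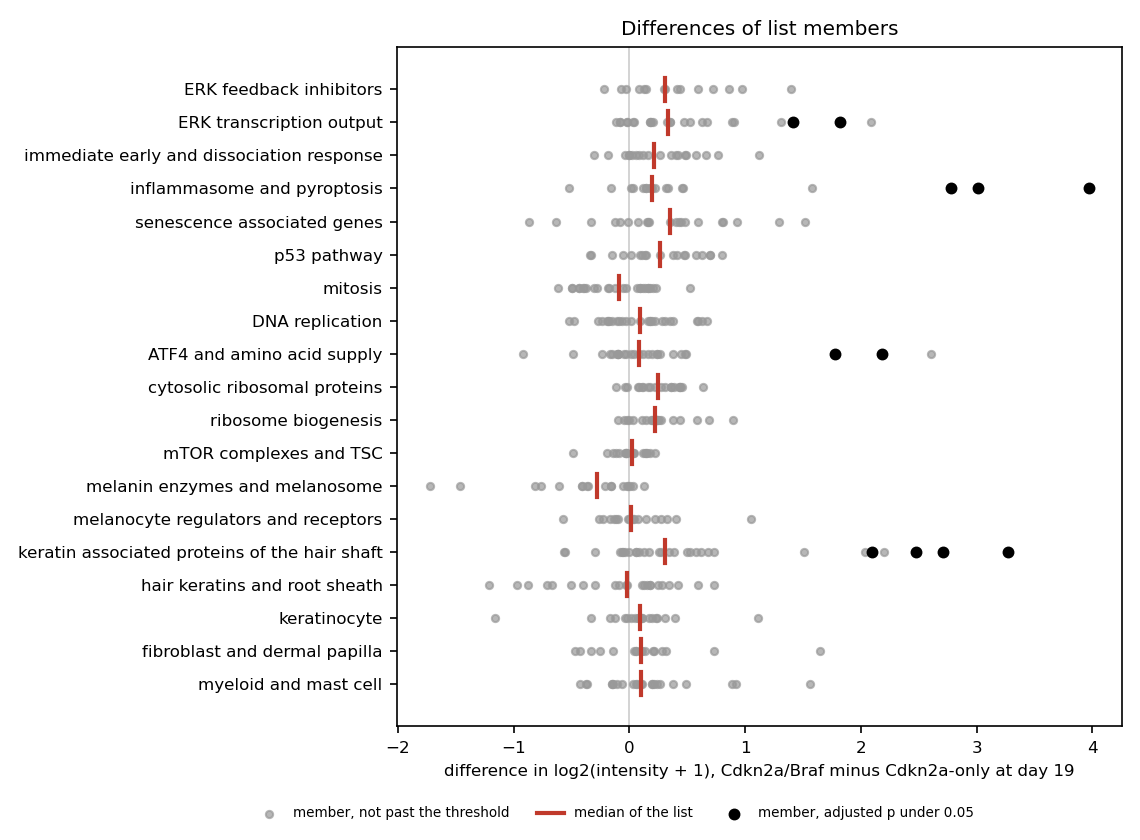
Differences in log2(intensity + 1), Cdkn2a/Braf minus Cdkn2a-only, of every measured member of 19 gene lists; grey points missed and black points passed the adjusted p of 0.05, and red bars are list medians. The inflammasome list holds 3 points at 2.78 or above, of which Casp1 is the inflammasome component and Pla2g7 and Anxa1 are not. Its median is 0.19, and melanin genes have a median of -0.28.

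The genes that rose at day 19 differed in how they stood in the other groups, given here as levels because the comparisons share arrays. The melanomas and proliferations are lesions. Tyr read 11.92 and 11.66 in Cdkn2a/Braf day 19 cells, 4.45 and 4.34 in Cdkn2a/Braf melanoma, and 6.18 to 6.67 in the Lkb1/Braf proliferations. The share of melanocytes in the lesions was not tested, so levels there need not be those of melanocytes. Pla2g7 lay at 6.05 and 5.52 in Cdkn2a/Braf day 50 cells, near the Cdkn2a-only arrays, and at 12.07 and 11.29 in Cdkn2a/Braf melanoma. Casp1 was between 7.27 and 9.24 on all arrays with the Braf allele, and Anxa1 between 9.57 and 11.49. Both caspase and annexin were lower on each Cdkn2a-only array than on any of these. Gabrb2 was at 5.49 or below in every group but Cdkn2a/Braf day 19. Slc15a1 was between 4.07 and 6.33 on the arrays of the 4 other Braf groups, and Car2 between 5.27 and 6.73. Crabp1 read 8.16 and 8.22 in Cdkn2a/Braf day 19 cells, 6.71 and 6.78 at day 50, and 13.25 and 12.89 in Cdkn2a/Braf melanoma. Krtap6-2 was at 5.11 and 4.64 at day 50 and 4.34 and 3.85 in Cdkn2a/Braf melanoma, but between 8.85 and 9.17 in the 3 Lkb1/Braf proliferations. Asns was highest in Cdkn2a/Braf day 19 cells, with 9.18 the highest value on any other array. Mir211 lay between 6.19 and 7.74 on the arrays of the other Braf groups, below both Cdkn2a-only arrays.

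**Figure D4:**
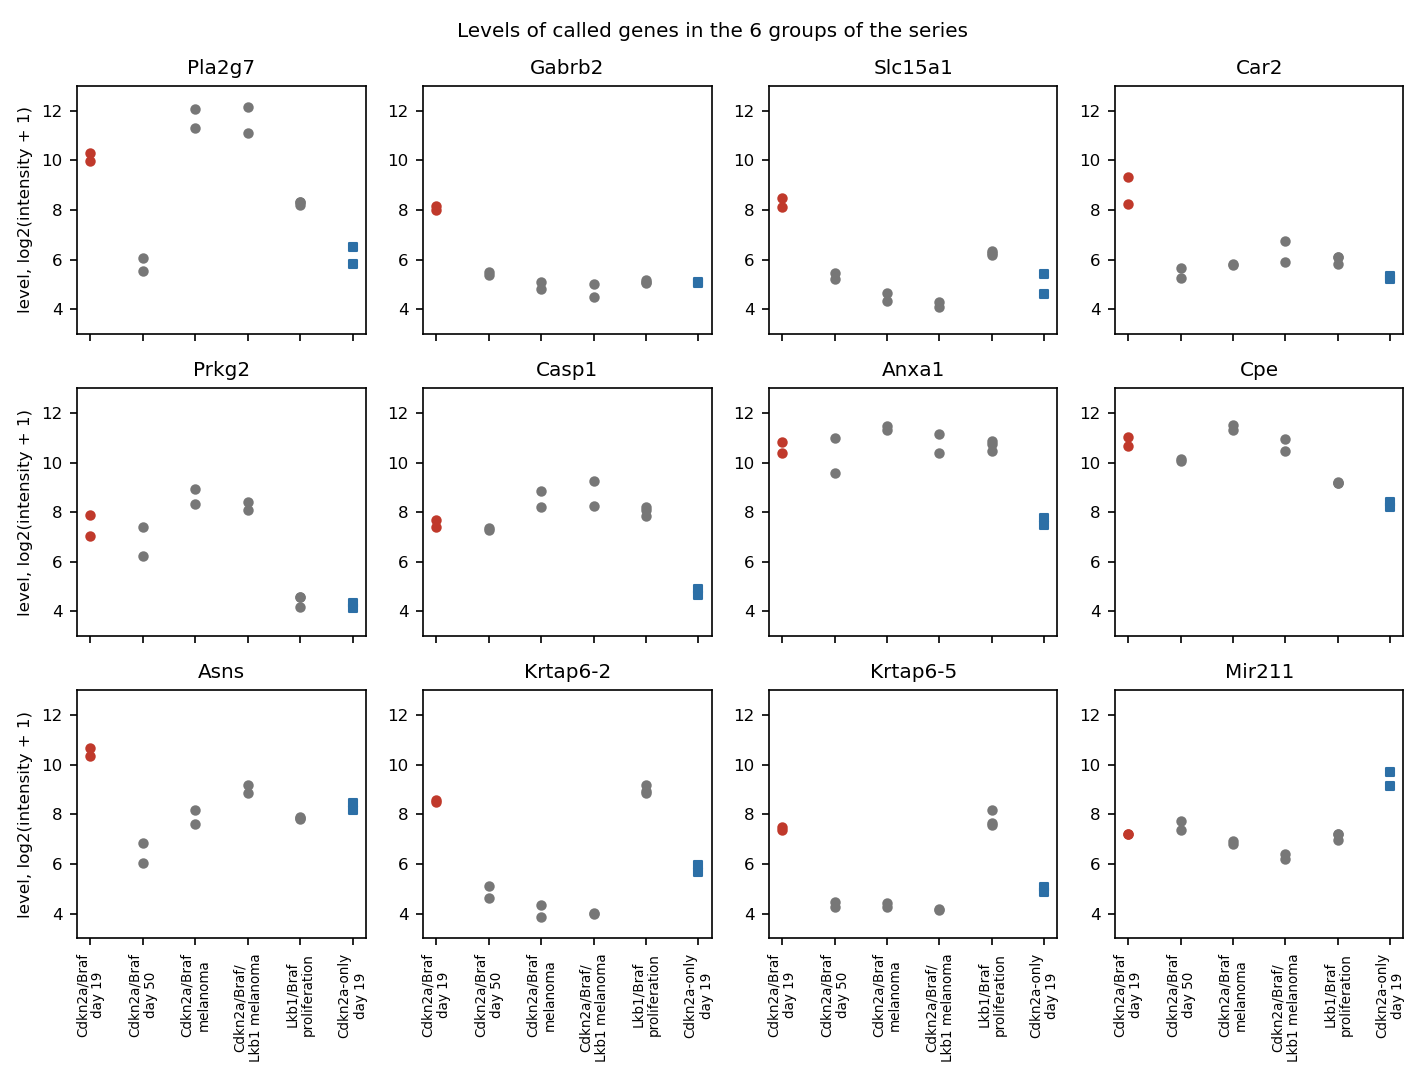
Levels, as log2(intensity + 1), of 12 called genes on all 13 arrays; red marks Cdkn2a/Braf day 19, grey the other groups with the Braf allele, and blue squares Cdkn2a-only day 19. Gabrb2, Slc15a1 and Car2 are high in the day 19 Braf arrays, whereas Pla2g7 is also high in the melanomas (12.07 and 11.29 in Cdkn2a/Braf melanoma).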

How the data were processed

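Sorted melanocytes and lesions were profiled on 13 Affymetrix whole-transcript arrays, 1 per sample. Per the labels' protocols, RNA came from Qiagen RNeasy extraction, with NuGEN's Ovation V2 and Encore kits for amplification and labelling. The authors deposited intensities, and their range shows a linear scale (3.35 to 17698, array medians 68.3 to 80.5). Per the submitters' processing notes they were made with RMA, which gives log2 values, and how linear values arose was not given in the sources used here. Array number limits the precision. Background in low intensities understates differences of dim genes.

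From 34760 probe sets, 21640 name 1 gene in the platform table, 1321 name several and were left out, and 11799 are not listed. This gave 19937 genes, with the brightest probe set used for the 954 genes with several. Values were taken as log2(intensity + 1) and fitted with limma 3.58.1 (R 4.3.3) as 6 group means over all 13 arrays (7 residual and 3.08 prior degrees of freedom), in two-sided tests whose p-values were adjusted by Benjamini-Hochberg across the 19937 genes (threshold 0.05). On simulated data for this contrast (19937 genes, 200 changed) the fit recovered 53.7%, 86.6% and 95.5% of genes changed by 1, 2 and 3 on the log2 scale, with 3.09% of calls false. The simulated noise was independent and normal, with the same SD for a gene in all groups, as the model assumes. The real groups differed in spread, so these rates need not hold for them. No pair of arrays held identical values.

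Called genes could be named. The 20 largest increases and 10 largest decreases of at least 1 without overlap are given on every array, and members of 40 gene lists could be named too. The members and lists were chosen with earlier results of these data known. No label says that replicate numbers pair the samples, and the main fit did not pair them. The deviations of replicate 1 in the 2 genotypes correlated at 0.06 over genes. This correlation cannot settle whether samples were paired, because sex was crossed with replicate number. Gene order and sequences come from RefSeq, and 36 called genes had a promoter there. Alternatives covered scaling, probe sets, filters, moderation, weights, the arrays in the fit, a replicate block, the pseudocount and leaving out each day 19 array. Tables and plots were made with pandas 2.3.3, matplotlib 3.10.9 and numpy 2.4.6 under Python 3.11.15.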

Additional observations from a re-analysis of the deposited data

Results flagged for a closer look

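The comparison by gene does not use the 11799 probe sets that the platform table does not list. In a limma fit over all 34760 probe sets, 7 of them were called higher in Cdkn2a/Braf than in Cdkn2a-only day 19 cells and 28 lower, which is 0.297% of those tested, against 0.213% of the probe sets that name 1 gene, and the difference between these shares was not tested. Their differences ran from -4.74 to 2.35 on the log2 scale. No gene was assigned to them here.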

How the results depend on the processing

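Counts are given as genes higher and lower in Cdkn2a/Braf cells by limma, 47 and 11 as reported. Array weights gave 140 and 53, group weights 143 and 52, and scaling to a common interquartile range 26 and 10. Keeping genes above the median level gave 17 and 5, and testing all probe sets gave 44 and 40. The replicate block gave 18 and 3. The 6 sorted arrays alone gave 1 and 0 (1033 unadjusted p under 0.05) and the 4 day 19 arrays 0 and 0 (1972 unadjusted). Leaving out 1 day 19 array gave 9 to 32 higher and 1 to 25 lower, the lone array being assumed to vary like the other groups. Of fits chosen after seeing the data, leaving out the day 50 arrays gave 122 and 42, and the sorted arrays with group weights 15 and 4. The replicate differences had an SD over genes of 0.703 in the day 50 pair, 0.292 in the Cdkn2a/Braf day 19 pair and 0.361 in the Cdkn2a-only pair, and the day 50 arrays had a group weight of 0.333 against 1.78 for Cdkn2a/Braf day 19. The cause of the other shifts was not tested. Quantile normalization, median centring, averaging probe sets, the log2 filter at 6, the intensity trend and the pseudocount of 16 kept both counts within 1.5 times. In 1075 values of the 58 called genes under these alternatives, 0 had the opposite sign. The alternatives reused the same arrays, on which the genotypes did not overlap for any of the 58. Leaving out arrays or changing weights, filters, moderation or the pseudocount could therefore not turn a sign.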
